A study of Mus musculus with 36 samples.

Results

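The livers of mice fed quercetin were compared with those of control mice for every measured gene outside fat metabolism. Of the 11563 genes with an expressed probe, 329 belong to fatty acid oxidation, the Cyp4a family, other lipid metabolism, the circadian clock or the genes that the study itself tabulated, and they were set aside by lists of symbols. The other 11234 genes are described here. Lists cannot be complete, and some enzymes next to lipid metabolism (Gpcpd1, Acnat2) are not on them and were kept. All mice were adult males labelled C57BL/6J, which the methods of the study give as C57BL/6JOlaHsd, and all ate a mild-high-fat diet with 30% of its energy from fat. Of the 36 livers in the series, 12 came from the control group on that diet and 12 from the quercetin group, which received it with 0.33% (w/w) quercetin, both for 12 weeks after the adaptation period. The other 12 livers, from mice killed when adaptation ended, form the baseline group. They are younger than the other groups by the length of the intervention, so age and time on the diet cannot be told apart in them, and they serve as a reference level. The mice were fasted for a short time before they were killed.

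Each array carried the Cy5-labelled cRNA of a single liver beside a Cy3-labelled pool of all livers, so that each value is a log2 ratio to this pool, and 0 means the level of the pool. A gene was called when limma gave an adjusted p under 0.05 over all 18372 expressed probes. Median Cy5 signals were between 2.04 and 3.24 times the local background on 35 of the 36 arrays, and 8.96 times on the array of quercetin replicate 2, which stands apart. The liver of control replicate 5 also stands apart, since the markers of the exocrine pancreas had a mean log2 ratio of 5.22 there and at most -3.19 in any other liver. Without quercetin replicate 2, 286 genes were called, and without control replicate 5, 369, against 332 with all arrays. Pairs of arrays of the 3 groups correlated between -0.48 and 0.84 over the expressed probes. All share the pool as reference, and the direction rests on the dyes that the labels name. The hepatocyte markers (7 measured, among them Alb, 11279 times background) showed no called difference.

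The liver takes up foreign compounds such as the plant flavonoid quercetin and makes them soluble in steps. Cytochrome P450 and other oxidising enzymes act first, transferases then attach glucuronic acid, sulfate or glutathione, and membrane pumps move the products into bile or blood. The nuclear receptors Nr1i3 (CAR) and Nr1i2 (PXR), the aryl hydrocarbon receptor Ahr and the stress-responsive factor Nfe2l2 (Nrf2) are known to control many of these genes, and the same organ also runs the nucleotide, sugar and amino acid pathways described further on.

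The promoters of 5 genes that were higher with quercetin are shown because they stand for the detoxification genes, a transporter and a secreted factor described below. A further reason is that 4 of them match TTATGNAA, the letters searched here for the D-box, a site of the clock-driven factors Dbp and Tef. Any base was allowed at N, so a match need not be a site that these factors bind, and binding was not tested. They are the 250 bases before the annotated start, 5′ to 3′ on the strand of the gene, from RefSeq on GRCm38.p6, and were chosen after the values were seen. Capitals mark matches to 4 motifs searched on both strands, TGACNNNGC (antioxidant response element core), TTGCGTG (xenobiotic response element core), CACGTG (E-box) and TTATGNAA (D-box), none of which contains another.
Cyp2a5: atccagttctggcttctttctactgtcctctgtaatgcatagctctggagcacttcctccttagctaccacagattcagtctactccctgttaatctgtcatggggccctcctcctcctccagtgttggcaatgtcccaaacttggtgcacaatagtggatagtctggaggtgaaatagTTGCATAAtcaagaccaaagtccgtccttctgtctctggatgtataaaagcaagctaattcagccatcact
Cyp2a4: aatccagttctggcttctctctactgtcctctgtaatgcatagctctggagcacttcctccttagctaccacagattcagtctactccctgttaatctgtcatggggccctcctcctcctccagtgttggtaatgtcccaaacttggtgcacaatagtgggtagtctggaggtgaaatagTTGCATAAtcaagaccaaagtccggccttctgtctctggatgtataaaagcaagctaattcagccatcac
Nrg4: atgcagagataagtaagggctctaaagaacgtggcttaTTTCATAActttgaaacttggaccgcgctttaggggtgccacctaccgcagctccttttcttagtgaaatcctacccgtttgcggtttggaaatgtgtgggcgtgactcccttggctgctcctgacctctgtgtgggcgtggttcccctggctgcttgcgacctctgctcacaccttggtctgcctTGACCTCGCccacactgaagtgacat
Slc16a12: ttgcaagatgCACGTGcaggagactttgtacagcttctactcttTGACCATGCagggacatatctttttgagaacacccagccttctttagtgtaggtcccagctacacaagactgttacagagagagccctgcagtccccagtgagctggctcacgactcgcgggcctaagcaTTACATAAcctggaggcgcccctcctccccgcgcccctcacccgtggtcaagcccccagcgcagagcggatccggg
Nr1i3: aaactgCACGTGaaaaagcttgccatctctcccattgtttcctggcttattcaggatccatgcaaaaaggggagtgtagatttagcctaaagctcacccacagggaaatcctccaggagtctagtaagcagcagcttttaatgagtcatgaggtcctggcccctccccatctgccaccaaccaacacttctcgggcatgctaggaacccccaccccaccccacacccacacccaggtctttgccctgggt
These stretches lie at chr7:26835089-26835338, chr7:26306942-26307191, chr9:55283626-55283875, chr19:34747329-34747578 and chr1:171213720-171213969, those of Nrg4 and Slc16a12 on the minus strand. The near-identical promoters of Cyp2a5 and Cyp2a4 hold the D-box at positions -71 and -70 before the start. Nrg4 holds a match to the D-box letters at -212, with A at N on the other strand, and an antioxidant element core at -26. Slc16a12 holds a D-box at -76, an antioxidant element core at -206 and an E-box at -240, and Nr1i3 holds an E-box at -244.

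Over windows that run to 50 bases past the start, promoters were found for 163 of the 202 genes that were higher with quercetin, 100 of the 130 that were lower and 8973 of all 11234. A match to the D-box letters was present in 13 of the 163 (7.98%), in 3 of the 100 (3%) and in 237 of the 8973 (2.64%). The 13 genes are Nrg4, Cyp2a5, Cyp2a4, Slc16a12, Prlr, Ces1b, Slc1a2, Gde1, Map2k6, Wnt5b, Ak4, Atg14 and Pus7. The near-identical promoters of Cyp2a5 and Cyp2a4 are counted apart here. The 3 lower genes are Mycn, Ddc and Gask1a. The E-box was found in 17.2%, 14% and 11.6%, the antioxidant element core in 19%, 17% and 17%, and the xenobiotic element core in 1.84%, 1% and 2.01% of the higher, lower and all promoters. These shares describe the letters in the windows and were not tested.

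In the quercetin group 202 genes were higher and 130 lower than in the control group, which is 1.8% and 1.16% of the 11234 genes and 2.96% in all, against 14.9% of the 329 genes set aside. The genes set aside include those that the study tabulated for their difference between these same groups. Part of their share was therefore fixed in advance, and the contrast is no test. Over all 11563 genes 2.03% were higher and 1.26% lower, 3.29% in all, and 3.41% of all expressed probes were called. The differences were small. Among the 332 called genes the median size was 0.28 on the log2 scale, 37 exceeded 0.5, and Tubb2a alone exceeded a 2-fold change. The groups failed to overlap for 2 of the 11234 genes (0.0178%, or 0.0173% of all 11563), Cyp2c39 and Ranbp9. For 183 of the 332 all 12 livers on quercetin fell on the same side of the median control, and for 267 the difference had the same direction on at least 8 of the 9 slides. Both counts cover genes that were called on these same values, so they describe the calls and do not test them. The groups share slides, and a fit with the slide as a fixed block called 132 genes, 79 higher and 53 lower, among them 29 of the 71 called genes that the naming rule gives. Genes described below that were not called in that fit are named beside their values. The split into higher and lower genes depended on the scaling. It was 1 and 29 with median centring, 16 and 18 with scale normalization, 55 and 57 from the Cy5 channel without Cy3, 115 and 146 with the Feature Extraction processed signals, 152 and 150 without background correction, and 128 and 128 with the authors' processed values. Under each of these settings, 70 or all 71 of the called genes that the naming rule gives kept their direction.

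**Figure D1:**
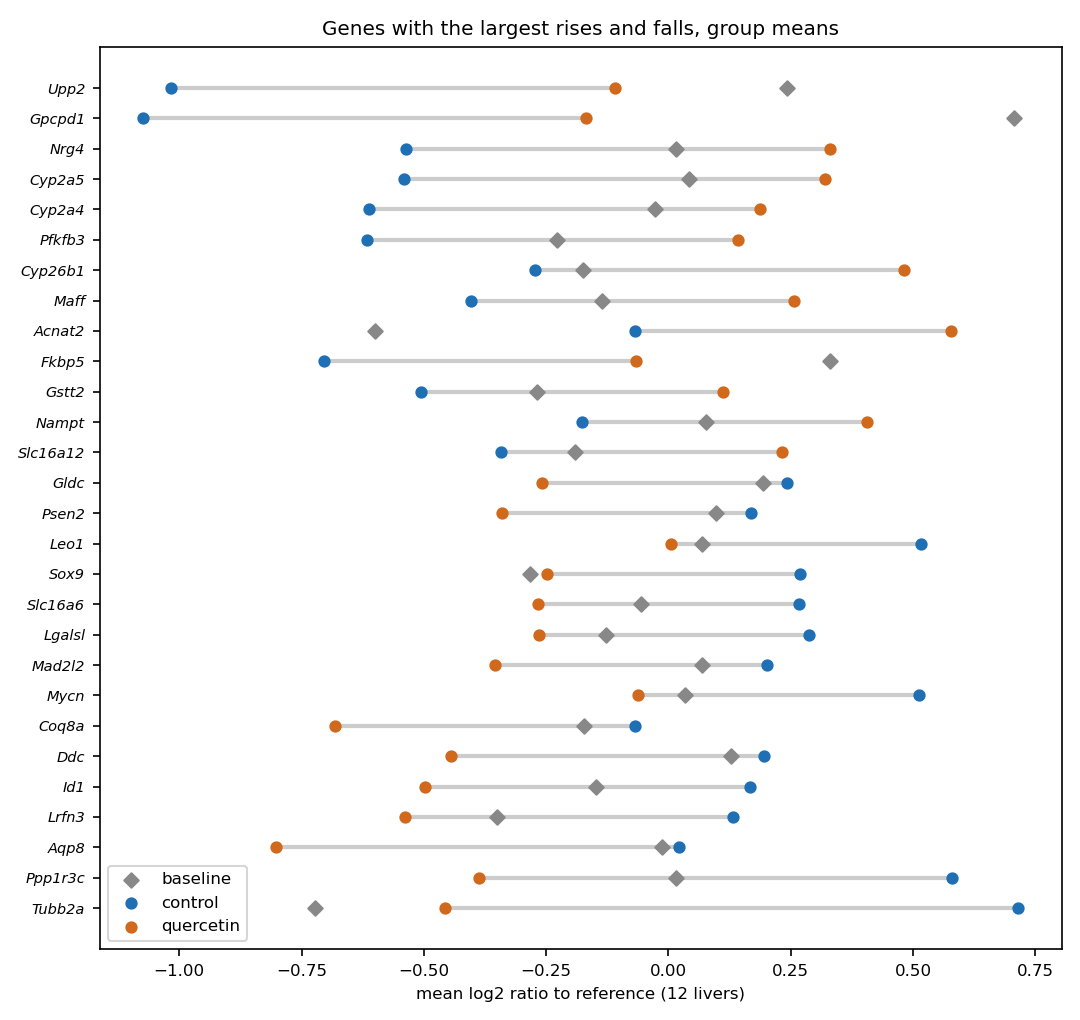
Mean log2 ratio to the reference pool (x axis, 12 livers a group) for 13 of the 15 genes with the largest rise and the 15 with the largest fall, ordered by the difference between quercetin (orange) and control (blue), with the baseline mean as a grey diamond. For Upp2 and Gpcpd1 the quercetin mean lies between control and baseline, and for Acnat2 the baseline mean of -0.60 lies below both.

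The baseline mean was nearer to the quercetin mean than to the control mean for 221 of the 332 called genes and nearer to the control mean for 111. It lay between the means of the diets for 181, beyond quercetin for 113 and beyond control for 38. Over all 11234 genes 57.8% had the baseline nearer to quercetin, against 66.6% of those called. The control values enter both differences, so these counts are a description.

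**Figure D2:**
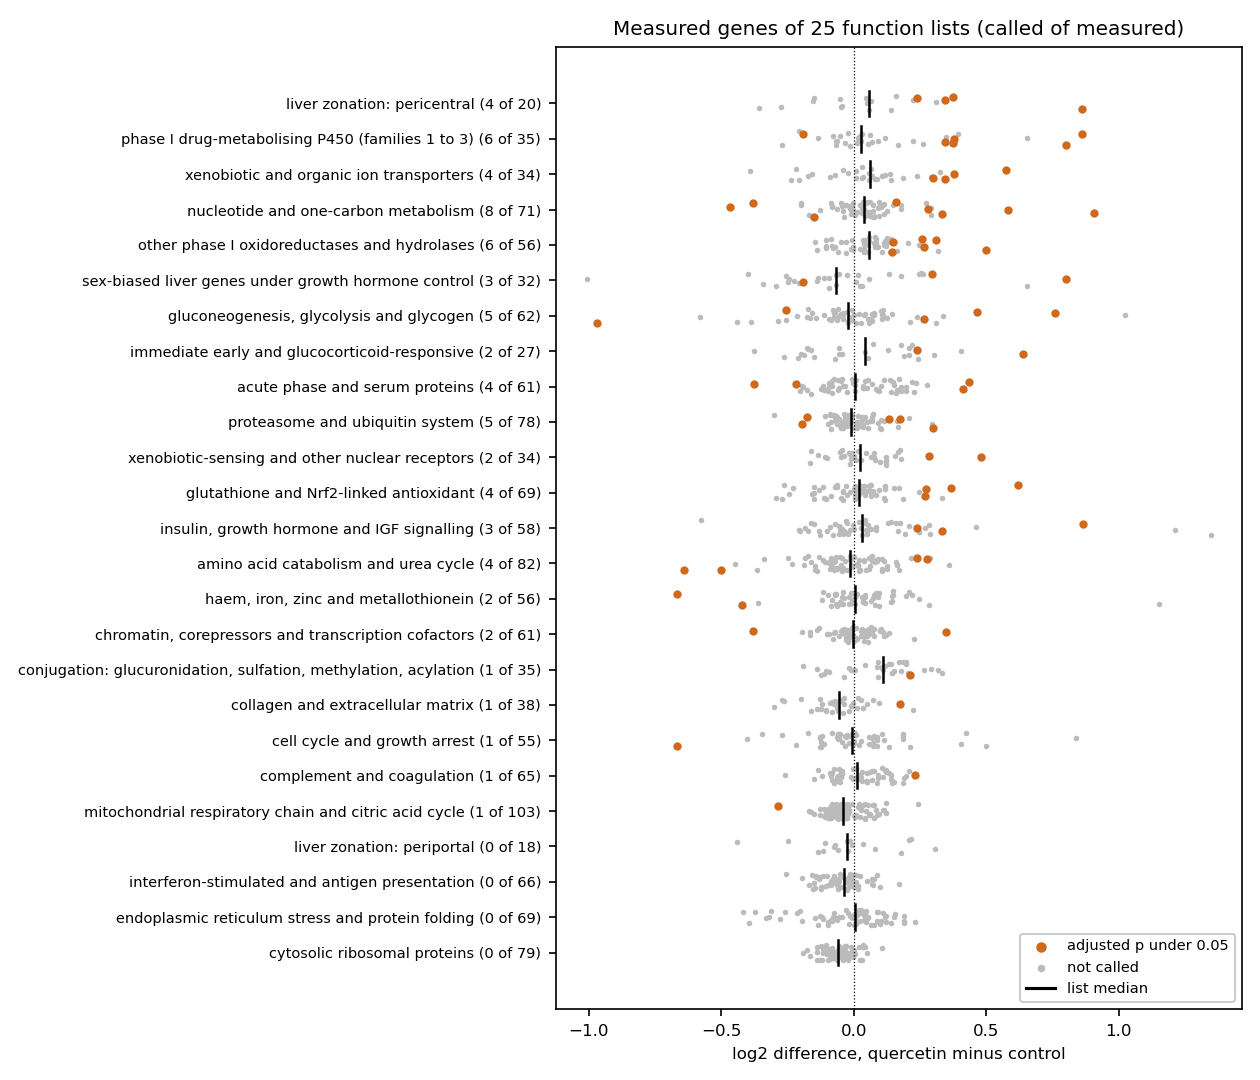
Log2 difference of quercetin minus control (x axis) for each measured gene of 25 function lists, with called genes in orange, others in grey and the list median as a black bar. Called genes on the 3 drug-metabolism lists of P450 enzymes, other oxidoreductases and transporters lie to the right of 0, apart from Cyp2u1 at -0.19, and the ribosomal protein list has 0 called of 79.

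Called genes of drug metabolism were higher with quercetin, apart from Cyp2u1. Of 35 measured P450 enzymes of families 1 to 3, 5 were higher and Cyp2u1 was lower (17.1% called), of 56 other oxidoreductases and hydrolases 6 were higher (10.7%), and of 34 transporters 4 were higher (11.8%). The background for either direction is 2.96%. The list medians of 0.03, 0.06 and 0.06 stood beside a median of -0.01 over all genes. Without quercetin replicate 2 the 3 lists held 6, 4 and 4 calls, and without control replicate 5 also 6, 4 and 4. With median centring they held 0.

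Among the receptors, Nr1i3 (CAR, probe on chromosome 1), which controls many drug-metabolising genes in hepatocytes, ranged from -0.53 through a median of -0.32 to 0.05 in the control group and from -0.08 through 0.13 to 0.67 in the quercetin group. All 12 livers on quercetin exceeded the median control, and 8 exceeded the highest. The log2 difference was 0.48 (standard error 0.07, adjusted p = 0.000328, limma), a 1.39-fold higher level, and the baseline mean was -0.02. With median centring Nr1i3 was not called (adjusted p = 0.236, limma). The study itself reported this gene as significantly higher on these arrays after adjustment. In its RT-qPCR the rise had the same direction and was not significant. Of 34 measured nuclear receptors 2 were called (5.88%, against 2.96% over all 11234 genes), Nr1i3 and Nr2c2 (testicular receptor TR4), the latter at 0.28 (adjusted p = 0.0463). The other probe of Nr2c2 gave 0.17 and was not called. Nr2c2 was not called without quercetin replicate 2 or without control replicate 5, nor with the slide as a fixed block. Its baseline mean was 0.23, above that of either diet. The other xenobiotic regulators did not pass the test. Nr1i2 (PXR) had a log2 difference of 0.01 (standard error 0.10, adjusted p = 0.979), Ahr of 0.12 (standard error 0.13, adjusted p = 0.67) and Nfe2l2 of -0.15 (standard error 0.08, adjusted p = 0.335). At baseline they averaged -0.21, 0.06 and -0.13.

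Cyp2a5, a coumarin hydroxylase, ranged from -1.20 through -0.59 to 0.37 in the control group and from -0.46 through 0.30 to 1.08 in the quercetin group. The ranges overlapped, although all 12 livers on quercetin exceeded the median control. The log2 difference was 0.86 (standard error 0.18, adjusted p = 0.00595, limma), with a baseline mean of 0.04 and a spread between baseline mice of 0.74 (SD). Cyp2a4, a steroid hydroxylase with a female-biased level in liver, differed by 0.80 (adjusted p = 0.00441), and the accessions of its probe belong to Cyp2a4 and Cyp2a5 alike, so the genes cannot be told apart there. Cyp2c39, a retinoic acid hydroxylase, was the P450 whose groups did not overlap. Its control values ran from -0.44 through -0.10 to -0.02 and its quercetin values from 0.04 through 0.17 to 0.83, a log2 difference of 0.38 (standard error 0.07, adjusted p = 0.0034), with the baseline mean at -0.08. Cyp2c37 differed by 0.37 (adjusted p = 0.00601) and Cyp2e1, the ethanol-inducible P450, by 0.34 (adjusted p = 0.0242), and Cyp2e1 was not called with the slide as a fixed block (adjusted p = 0.0629). Baseline livers averaged -0.03 for Cyp2a4, -0.29 for Cyp2c37 and 0.27 for Cyp2e1.

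Cyp2b9, Cyp3a11, Cyp2b10 and Cyp1a1 were not called. Cyp2b9 is also on the list of genes with a sex-biased level in liver. Cyp2b9 had a log2 difference of 0.65 with an adjusted p of 0.0629 (limma). The probes of Cyp2b10 and Cyp1a1, the standard markers of CAR and Ahr activity, reached at most 1.70 and 1.63 times background in Cy3 and did not count as expressed, although their brightest Cy5 signals were 2.09 and 2.36 times background. With the filter on signals well above background, the brightest probe of Cyp2b10 had a log2 difference of 0.05 (adjusted p = 0.716) and that of Cyp1a1 of -0.03 (adjusted p = 0.81), and neither was called without a filter. Cyp3a11, 448 times background in Cy5, had 0.09 under the same filter (adjusted p = 0.825, limma). Cyp26b1, which degrades retinoic acid and stands on none of these lists, differed by 0.76 (standard error 0.21, adjusted p = 0.0433), with 10 of 12 livers on quercetin over the median control and an adjusted p of 0.091 with the slide as a fixed block. Its baseline mean was -0.17.

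**Figure D3:**
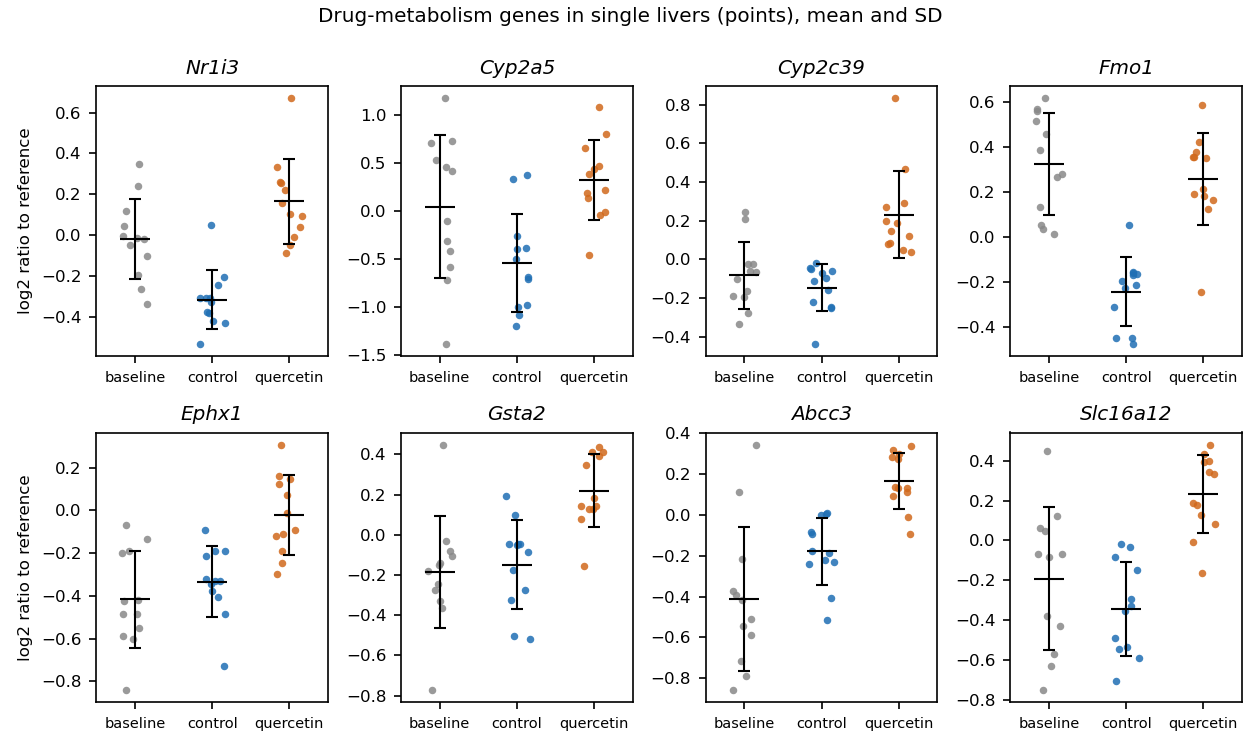
Log2 ratio to the reference pool (y axis) of 8 drug-metabolism genes in single livers (points) of the baseline, control and quercetin group, with the mean and SD in black. The groups on the 12-week diets separate fully for Cyp2c39 and nearly so for Fmo1 and Slc16a12, and for Ephx1 and Abcc3 the baseline mean lies below the control mean.

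Outside the P450 family, Fmo1, a flavin-containing monooxygenase of liver, had the smallest adjusted p of the named genes. Control values ran from -0.47 through -0.21 to 0.05 and quercetin values from -0.24 through 0.28 to 0.59, and 11 of 12 quercetin-fed mice exceeded every control mouse. The log2 difference was 0.50 (standard error 0.07, adjusted p = 0.000323, limma), a 1.41-fold difference, while the baseline mean of 0.32 was close to the quercetin mean of 0.26. Ephx1, the microsomal epoxide hydrolase, differed by 0.31 (adjusted p = 0.0105) with a baseline mean of -0.42, below both diets. The carboxylesterase Ces1b and the carbonyl reductase Cbr1 differed by 0.27 and 0.26 (adjusted p = 0.0041 and 0.0143). The smallest of the 6 differences were those of the monoamine oxidase Maob (0.15) and of Aldh6a1 (0.14). Ephx1, Maob and Aldh6a1 were not called with the slide as a fixed block. Ces1b, Cbr1, Maob and Aldh6a1 had baseline means of 0.01, -0.0036, 0.07 and -0.08.

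Of 35 measured enzymes of glucuronidation, sulfation, methylation and acylation 1 was called (2.86%, near the 2.96% over all 11234 genes). It was Ugt1a1, which glucuronidates bilirubin and flavonoids, at 0.21 (adjusted p = 0.0465, limma). Of the 35, 25 had a difference above 0, and the list median was 0.11. Among 69 genes of glutathione metabolism and the Nrf2 response 4 were higher (5.8%, against 2.96% over all 11234 genes). All 4 are glutathione transferases. Gstt2 ranged from -1.04 through -0.53 to -0.04 in control and from -0.20 through -0.02 to 1.28 in quercetin-fed mice. All 12 of the latter exceeded the median control, with 6 above every control, and the log2 difference was 0.62 (standard error 0.14, adjusted p = 0.012). Gsta2, Gsta1 and Mgst3 differed by 0.37, 0.27 and 0.27 (adjusted p = 0.00767, 0.0107 and 0.0374). The probes of Gsta1 and Gsta2 each match accessions of both genes. Gclc, which starts glutathione synthesis and is a known Nrf2 target, had a difference of -0.26 with an adjusted p of 0.207. Without control replicate 5, 2 genes of the list were called lower beside the 4 higher. Gstt2 (adjusted p = 0.0914), Mgst3 and Ugt1a1 were not called with the slide as a fixed block. Baseline means were -0.27 for Gstt2, -0.18 for Gsta2, -0.23 for Gsta1, -0.23 for Mgst3 and -0.18 for Ugt1a1.

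The 4 called transporters were all higher with quercetin. Slc16a12, a creatine transporter of the monocarboxylate family, ranged from -0.70 through -0.34 to -0.02 in the control group and from -0.16 through 0.26 to 0.48 in the quercetin group, and 11 of 12 quercetin-fed mice exceeded every control mouse. Its log2 difference was 0.58 (standard error 0.08, adjusted p = 0.000328, limma). The lactate and pyruvate transporter Slc16a7 differed by 0.38 (adjusted p = 0.00646). Abcc3 and Abcc2, which export glucuronides into blood and into bile, differed by 0.35 and 0.30 (adjusted p = 0.0018 and 0.00181). For Abcc3 the baseline mean of -0.41 lay below both diets, while for Abcc2 it was 0.20, near the quercetin mean of 0.18. For Slc16a12 and Slc16a7 it was -0.19 and 0.01.

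Several of these genes are known to be expressed around the central vein. Of 20 measured pericentral genes 4 were higher (20%, against 2.96% called over all 11234 genes). They were Cyp2a5, Cyp2c37, Cyp2e1 and the glutamate transporter Slc1a2 (0.24, adjusted p = 0.0342, limma), and 3 of the 4 also stand on the P450 list. Slc1a2 was not called without control replicate 5. Of 18 periportal genes 0 were called. At an unadjusted p under 0.05 there were 3, against 1829 of all 11234 genes. The median differences were 0.06 and -0.02. Of 32 measured genes with a sex-biased level in liver 3 were called (9.38%, against 2.96% over all 11234 genes), Cyp2a4, the prolactin receptor Prlr (0.30, adjusted p = 0.0481) and Cyp2u1 (-0.19, adjusted p = 0.034), and the list median was -0.07. Other expressed probes of Prlr gave 0.09 and 0.13 and were not called. Slc1a2, Cyp2e1, Prlr and Cyp2u1 were not called with the slide as a fixed block. Slc1a2, Prlr and Cyp2u1 had baseline means of -0.0021, 0.17 and -0.02.

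Nucleotide and one-carbon metabolism held the most calls of any list, 5 higher and 3 lower of 71 measured genes. Its share of 11.3% stood beside 2.96% over all 11234 genes, and the pericentral, P450 and transporter lists had higher shares. Upp2, the liver uridine phosphorylase, had the largest rise among the called genes. It ranged from -2.18 through -1.19 to 0.27 in control mice and from -1.75 through 0.03 to 0.59 in quercetin-fed mice, so the ranges overlapped, with 11 of 12 livers on quercetin over the median control. The log2 difference was 0.91 (standard error 0.23, adjusted p = 0.0278, limma), a 1.88-fold difference, and the baseline mean of 0.24 was higher than that of either diet. Nampt, which limits the salvage of nicotinamide to NAD, differed by 0.58 (standard error 0.13, adjusted p = 0.0135), with 11 of 12 over the median control and a control mouse at 0.82, above every quercetin-fed mouse. Pdxk, the pyridoxal kinase, and Dpys, a pyrimidine-degrading enzyme, differed by 0.33 and 0.28 (adjusted p = 0.0188 and 0.0239). Upp2 (adjusted p = 0.102), Pdxk and Dpys were not called with the slide as a fixed block. Nampt, Pdxk and Dpys had baseline means of 0.08, -0.08 and 0.02.

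Tymp, the thymidine phosphorylase, was lower with quercetin. It ranged from -0.41 through -0.04 to 0.17 in control and from -0.99 through -0.38 to -0.22 in quercetin-fed mice, and 5 of 12 quercetin-fed mice lay below every control mouse. The log2 difference was -0.38 (adjusted p = 0.00762, limma), and the baseline mean of 0.16 lay above both diets. Qprt of NAD synthesis was also lower (-0.15, adjusted p = 0.0282). On the amino acid list of 82 genes 2 were higher and 2 lower (4.88% called, against 2.96% over all 11234 genes). Ahcy, which splits S-adenosylhomocysteine, and the aspartate-glutamate carrier Slc25a13 differed by 0.24 and 0.28 (adjusted p = 0.0347 and 0.0101). Gldc, the decarboxylase of the glycine cleavage system, ranged from -0.07 through 0.31 to 0.46 in control and from -0.70 through -0.31 to 0.29 in quercetin-fed mice (log2 difference -0.50, standard error 0.10, adjusted p = 0.00409). Ddc, the aromatic amino acid decarboxylase, ranged from -0.25 through 0.10 to 0.79 and from -1.09 through -0.27 to -0.03, a difference of -0.64 (standard error 0.14, adjusted p = 0.00933), and its other probe gave -0.26 and was not called. Ddc (adjusted p = 0.0776), Ahcy and Qprt were not called with the slide as a fixed block. Gldc and Ddc had baseline means of 0.19 and 0.13, beside control means of 0.24 and 0.19. For Ahcy, Slc25a13 and Qprt the baseline means were 0.09, 0.09 and -0.04.

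**Figure D4:**
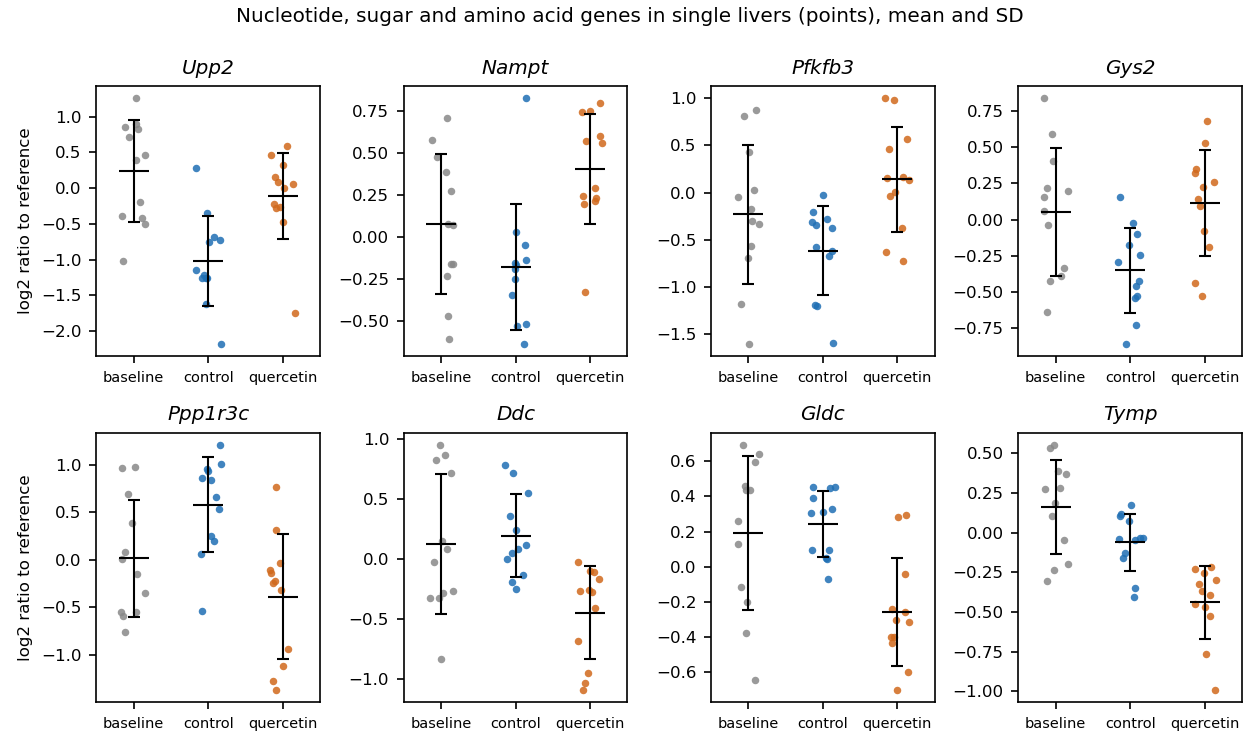
Log2 ratio to the reference pool (y axis) of 8 genes of nucleotide, sugar and amino acid metabolism in single livers (points) of the 3 groups, with the mean and SD in black. For Upp2, Nampt, Pfkfb3 and Gys2 most quercetin livers lie above the control mean, for Ppp1r3c, Ddc, Gldc and Tymp most lie below it, and the groups overlap for every gene.

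In sugar metabolism 3 of 62 measured genes were higher and 2 lower (8.06% called, against 2.96% over all 11234 genes). The list median was -0.02. Ppp1r3c, the subunit that brings a protein phosphatase to glycogen, had the next largest fall after Tubb2a among the called genes. It ranged from -0.54 through 0.75 to 1.21 in control mice and from -1.37 through -0.23 to 0.77 in quercetin-fed mice. The groups overlapped, with 11 of 12 livers on quercetin under the median control, and the log2 difference was -0.97 (standard error 0.22, adjusted p = 0.0127, limma), while its other probe gave -0.34 and was not called. Gys2, the liver glycogen synthase, differed by 0.47 (standard error 0.13, adjusted p = 0.038) and was not called without quercetin replicate 2. Pfkfb3, which sets the level of an activator of glycolysis, differed by 0.76 (standard error 0.20, adjusted p = 0.028). The sorbitol dehydrogenase Sord (0.26, adjusted p = 0.0164) was higher, and Galt of the galactose pathway (-0.25, adjusted p = 0.0261) was lower. With the slide as a fixed block 1 of these 5, Galt, was called. At baseline the means were 0.01 for Ppp1r3c, 0.05 for Gys2, -0.23 for Pfkfb3, -0.07 for Sord and -0.11 for Galt.

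Among hormone and stress signals, Nrg4, a growth factor of the epidermal growth factor family, ranged from -1.45 through -0.59 to 0.43 in control and from -0.37 through 0.27 to 1.01 in quercetin-fed mice. All 12 of the latter exceeded the median control, and the log2 difference was 0.87 (standard error 0.17, adjusted p = 0.00507, limma) with a baseline mean of 0.02. Of 58 measured genes of insulin, growth hormone and IGF signalling 3 were higher (5.17% called, against 2.96% over all 11234 genes). Besides Nrg4 these were the binding protein Igfbp4 (0.33, adjusted p = 0.016) and the kinase Sik1 (0.24, adjusted p = 0.0308). Of 27 immediate early and glucocorticoid-responsive genes 2 were higher (7.41% called), Sik1 and Fkbp5, a co-chaperone of the glucocorticoid receptor that glucocorticoids induce. Fkbp5 differed by 0.64 (standard error 0.16, adjusted p = 0.0278), with a baseline mean of 0.33 above both diets, and its other probes gave 0.49, which was called, and 0.14, which was not. Serpina6, the carrier of corticosteroids in blood, was higher by 0.44 (adjusted p = 0.0105). Fkbp5 (adjusted p = 0.154), Igfbp4 and Sik1 were not called with the slide as a fixed block. Igfbp4, Sik1 and Serpina6 had baseline means of -0.17, -0.32 and -0.27.

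The acute phase and serum protein list had 2 higher and 2 lower of 61 genes (6.56% called, against 2.96% over all 11234 genes). Besides Serpina6, Cebpb, a transcription factor of the acute phase response, was higher by 0.41 (adjusted p = 0.0268, limma). The adipokine vaspin, Serpina12, ranged from 0.02 through 0.26 to 0.60 in control and from -0.38 through -0.06 to 0.20 in quercetin-fed mice, and 11 of 12 lay below every control mouse. Its log2 difference was -0.38 (standard error 0.06, adjusted p = 0.00136), with the baseline mean at 0.03, and it was called under each of the 18 planned processing alternatives. Serpina1d, an alpha-1-antitrypsin, was lower (-0.22, adjusted p = 0.0308). Its probe was saturated on 7 of the 24 arrays, its accessions cover 3 genes of the family, and its direction turned with scale normalization (0.22). Neither Serpina1d nor Cebpb was called with the slide as a fixed block. Their baseline means were 0.86 and -0.03.

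Of the transcription regulators among the largest changes, Maff, a small Maf partner of Nrf2, differed by 0.66 (adjusted p = 0.0344, limma), with 11 of 12 livers on quercetin over the median control. The DNA methyltransferase Dnmt3a was higher by 0.35 (adjusted p = 0.0258) and the histone demethylase Kdm4a was lower, at -0.38 (adjusted p = 0.000608), the only 2 called of 61 chromatin genes. That share of 3.28% is near the 2.96% over all 11234 genes. For Kdm4a the control values ran from 0.12 through 0.38 to 0.55 and the quercetin values from -0.39 through 0.03 to 0.18, so that 8 of 12 quercetin-fed mice lay below every control mouse. Mycn, a proto-oncogene of the Myc family, and Leo1 of the polymerase-associated Paf complex were lower, at -0.57 and -0.51 (adjusted p = 0.0136 and 0.00212). Maff (adjusted p = 0.124), Dnmt3a and Mycn were not called with the slide as a fixed block. At baseline Kdm4a averaged -0.23, below both diets, and Maff -0.14, Dnmt3a 0.17, Mycn 0.03 and Leo1 0.07.

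Id1, a target of bone morphogenetic protein signals and an inhibitor of differentiation factors, was lower, at -0.67 (standard error 0.18, adjusted p = 0.0321, limma), and its other probe gave the same value and was called. Id1 stands on the lists of cell cycle genes (1 called of 55, 1.82%) and of haem, iron, zinc and metallothionein (2 of 56, 3.57%). Over all 11234 genes the share was 2.96%. The other called gene of the haem, iron, zinc and metallothionein list was Slc30a10, a manganese exporter, at -0.42 (adjusted p = 0.0183). Neither Id1 (adjusted p = 0.105) nor Slc30a10 was called with the slide as a fixed block. Their baseline means were -0.15 and -0.01.

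Tubb2a, a beta tubulin, had the largest fall among the called genes. It ranged from -0.28 through 0.87 to 1.69 in control mice and from -1.96 through -0.43 to 1.05 in quercetin-fed mice, and 8 of the latter lay below every control mouse. The log2 difference was -1.17 (standard error 0.27, adjusted p = 0.0135, limma), 2.25-fold lower, with the baseline mean at -0.72, and the other 2 probes gave -0.58 and -0.59 and were called. Aqp8, a water channel of hepatocytes, differed by -0.82 (standard error 0.21, adjusted p = 0.0259), and its baseline mean of -0.01 stood beside a control mean of 0.02. Coq8a, a kinase-like protein needed for coenzyme Q, differed by -0.61 (adjusted p = 0.0089). Slc16a6, an exporter of ketone bodies, ranged from 0.00 through 0.19 to 0.74 in control and from -0.79 through -0.18 to 0.07 in quercetin-fed mice (difference -0.53, adjusted p = 0.00309). Lrfn3, a leucine-rich repeat adhesion protein, Mad2l2, a protein of DNA repair and mitosis, the galectin-like Lgalsl and the presenilin Psen2 differed by -0.67, -0.56, -0.55 and -0.51 (adjusted p = 0.00725, 0.00361, 0.00958 and 0.00221). With the slide as a fixed block the difference of Tubb2a was -1.08 and it was not called (adjusted p = 0.0876), nor were Aqp8 (adjusted p = 0.098), Coq8a and Lgalsl. Baseline means were -0.17 for Coq8a, -0.06 for Slc16a6, -0.35 for Lrfn3, 0.07 for Mad2l2, -0.13 for Lgalsl and 0.10 for Psen2.

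Acnat2, an acyl-CoA N-acyltransferase, and Gpcpd1, which cleaves glycerophosphocholine, stand close to lipid metabolism and differed by 0.65 and 0.90 (adjusted p = 0.019 and 0.0274, limma). For Gpcpd1 the 3 other probes gave 0.71 to 0.88 and were all called, and the baseline mean of 0.71 exceeded that of either diet. Among other housekeeping systems, 3 of 78 proteasome and ubiquitin genes were higher (Nedd4, Itch and Skp1) and 2 lower (Fbxw7 at -0.18 and Psmd11 at -0.20). The share called was 6.41%, against 2.96% over all 11234 genes. Nedd4 (0.30, adjusted p = 0.0487) was not called without control replicate 5, and its other 2 expressed probes had differences of the opposite sign, -0.11 and -0.0058, that were not called. Itch (0.17, adjusted p = 0.0421) was not called without either array that stands apart. Of 103 genes of the respiratory chain and citric acid cycle 1 was called (0.971%), the citrate synthase Cs (-0.29, adjusted p = 0.0473), which was not called without quercetin replicate 2. The other probe of Cs gave -0.16 and was not called. Of 65 complement and coagulation genes the tissue factor F3 was called (1.54%, difference 0.23, adjusted p = 0.0341), and of 38 matrix genes the inhibitor Timp3 (2.63%, difference 0.17, adjusted p = 0.044), and neither was called without quercetin replicate 2. The other probe of F3 gave 0.17 and was not called. None of these 10 genes was called with the slide as a fixed block. For Nedd4, Itch, Skp1, Fbxw7 and Psmd11 the baseline means were 0.20, 0.15, 0.18, 0.01 and -0.12. For Cs, F3 and Timp3 they were 0.12, 0.12 and -0.07.

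None of 79 cytosolic ribosomal proteins, 69 genes of endoplasmic reticulum stress and protein folding, or 66 interferon-stimulated and antigen presentation genes was called by limma. At an unadjusted p under 0.05 there were 10, 9 and 2, against 1829 of all 11234 genes. Of the list of protein folding, 1 gene was called with control replicate 5 left out, and 1 higher and 3 lower with array weights. The list medians were -0.06, 0.01 and -0.04. A p that misses the threshold does not show that these genes were equal in the groups.

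Of 5 measured markers of cholangiocytes, the cells of the bile ducts, 1 was lower with quercetin, Sox9, a transcription factor of biliary cells. The differences of the 5 ran from -0.52 to -0.04 with a median of -0.29. Sox9 ranged from 0.03 through 0.26 to 0.49 in control and from -0.85 through -0.17 to 0.06 in quercetin-fed mice, with 10 of 12 below every control mouse (difference -0.52, standard error 0.09, adjusted p = 0.0018, limma). The baseline mean of -0.28 stood beside a quercetin mean of -0.25. The mean over the 5 markers ran from -0.07 through 0.21 to 0.52 in control, from -0.45 through -0.08 to 0.13 in quercetin-fed and from -0.34 through -0.18 to 0.21 in baseline livers. In whole liver, fewer cells of a type and less RNA per cell cannot be told apart.

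Of the markers of other cells, Ighm of B cells was lower (-0.48, adjusted p = 0.0344, limma, 1 of 5 markers) and Pecam1 of endothelium was higher (0.23, adjusted p = 0.00899, 1 of 12). Ighm was not called with the slide as a fixed block. Ighm and Pecam1 had baseline means of -0.29 and 0.08. None of 13 Kupffer cell, 11 stellate cell, 4 erythroid, 3 T and NK cell, 2 adipocyte or 1 neutrophil marker was called. The 11 measured markers of exocrine pancreas had a median of -0.58 and none was called, with a high level in control replicate 5 only. The part of these cells in the results above was not tested. Of the 332 calls 307 were also made without control replicate 5.

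Of 8 clock genes looked at beside these results, and set aside from them, 5 were called. Arntl (Bmal1), a core activator of the clock, was lower with quercetin, from -1.05 to 0.16 against -0.36 to 0.84 in control mice (difference -0.76, adjusted p = 0.00361, limma), and Dbp and Tef were higher, at 0.90 and 0.65 (adjusted p = 0.00526 and 0.00216), as were Ciart and Nr1d2 (0.71 and 0.44, adjusted p = 0.0216 and 0.00361). Nr1d1 (0.02, adjusted p = 0.954), Per1 (0.38, adjusted p = 0.219) and Per2 (0.47, adjusted p = 0.157) did not pass the test. With the Arntl ratio of each liver as a covariate, an alternative added after the data had been seen, 0 of the 11234 genes were called. An unadjusted p under 0.05 was then reached by 818 genes, against 1829 without the covariate. With the covariate the direction stayed the same for 331 of the 332 called genes, the median difference was 75.2% of its size without it, and 199 of the 332 had an unadjusted p under 0.05. These genes were called on the same values, so the counts describe them and do not test the part of the clock. In genes picked as examples, the difference with the covariate was 0.13 for Upp2, 0.32 for Cyp2a5, 0.39 for Nrg4, 0.07 for Gys2 and -0.09 for Lrfn3, and it was 0.40 for Nr1i3, 0.41 for Fmo1, 0.86 for Acnat2 and -0.56 for Mycn. The part of the clock in these results cannot be told apart from the diet.

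**Figure D5:**
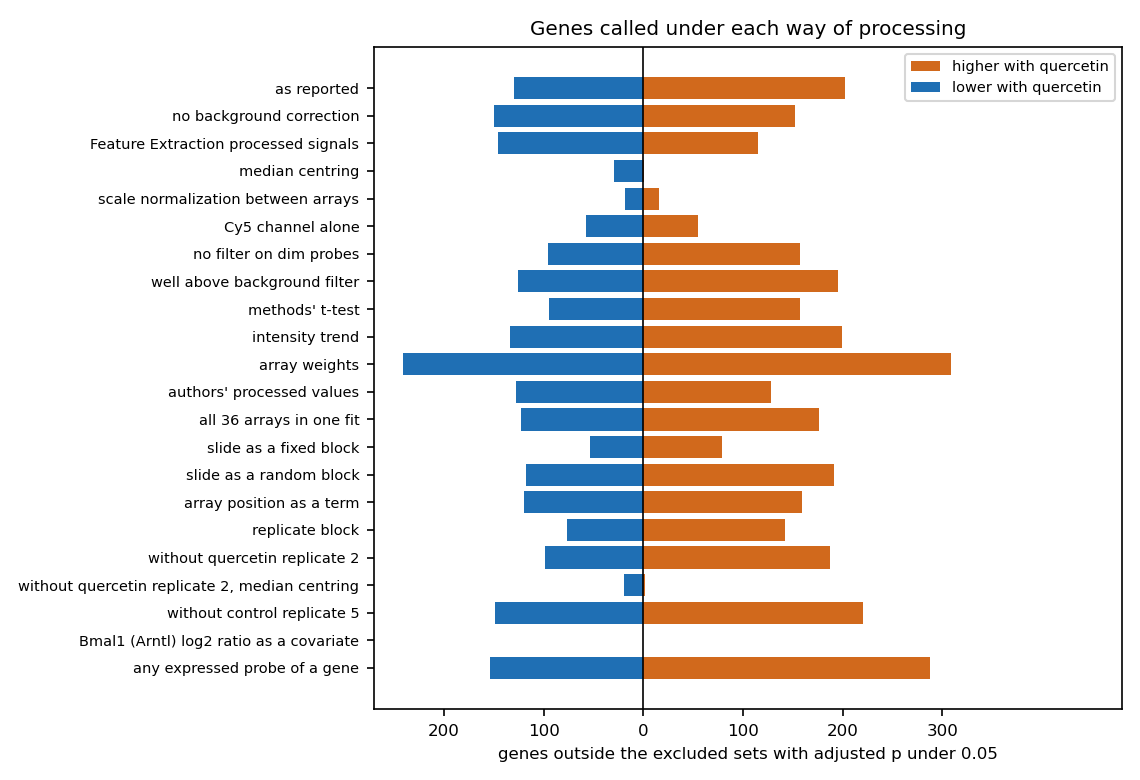
Number of genes outside the excluded sets with an adjusted p under 0.05 (x axis), higher to the right and lower to the left, as reported and under each alternative (y axis). The bars are 202 and 130 as reported, 309 and 241 with array weights, 1 and 29 with median centring and 0 with the Arntl covariate.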

How the data were processed

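Liver RNA was hybridised to 2-colour Agilent arrays, individual samples in Cy5 and a pool of all samples in Cy3. Per the file headers, the scanner files deposited by the authors hold the median intensity and local background of each spot in both channels, quantified with Feature Extraction 10.5.1.1 and not normalised. A further table deposited by the authors gives log2 values for 23256 spots, which the authors kept by a signal over 2 times background and normalised, Cy5 against Cy3, in GeneMaths XT, with column medians of 8.96, and served as an alternative.

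Intensities were background corrected (normexp, offset 50), spots flagged as outliers were removed and log2 ratios were normalised by loess within each array. Spots of a probe were averaged. A probe was expressed when its mean Cy5 and Cy3 signals over the 24 arrays each exceeded 2 times the mean background. Probes were named through RefSeq on GRCm38.p6, 24375 of 41174 by accession, 2426 by synonym and 6301 by the symbol in the file, and 8072 stayed unnamed. A gene is its brightest expressed probe. Groups and replicate numbers came from the labels. limma (lmFit, eBayes, two-sided, Benjamini-Hochberg over all 18372 expressed probes) compared the diets, and the procedure was tested on simulated data. The methods of the study name a t-test, which was an alternative. The number of arrays limits the precision.

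Named genes are the 15 largest rises and 15 largest falls among called genes, at most 4 called members of each of 25 function lists, Nr1i3, Nr1i2, Ahr, Nfe2l2 and Nnt, and some genes that the rule gives are not reported here. Genes, lists and markers were chosen with earlier results of these data known, and further genes were named after their values were seen. The alternatives changed background correction, normalisation, filter, test, samples, slide, array position, replicate block and probe choice. R 4.3.3, limma 3.58.1, statmod 1.5.0, Python 3.11.15 and matplotlib 3.10.9 were used.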

Additional observations from a re-analysis of the deposited data

How the results depend on the processing

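The count of 332 called genes (202 higher, 130 lower) stayed within 1.5 times under the other filters, the trend, the methods' t-test, all 36 arrays, the random slide block, array position and with either array that stands apart left out. It was 30 (1 higher, 29 lower) with median centring, 21 (2 and 19) with median centring and without quercetin replicate 2, 34 (16 and 18) with scale normalization, 112 (55 and 57) from the Cy5 channel without Cy3, 550 (309 and 241) with array weights, 132 (79 and 53) with the slide as a fixed block, and 0 (0 and 0) with the Arntl covariate. The higher genes alone were 115 with the Feature Extraction processed signals and 128 with the authors' processed values. The cause was not tested.

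With the replicate block 218 genes were called, 142 higher and 76 lower, 194 of them among the 332. No pairing by number was visible. Residuals of same-numbered mice correlated with a median of -0.03 and from -0.29 to 0.16 (12 pairs, 3 of them over 0.1). This does not show that pairing was absent. With the replicate block 46 of the 71 called genes of the naming rule were called, against 29 with the slide as a fixed block, 13 with median centring and 8 with scale normalization.

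Over 1500 combinations of a gene of that rule and an alternative 1002 kept direction and call, 487 kept direction but lost the call and 11 turned. Serpina1d turned to 0.22 and Nfe2l2 to 0.077 with scale normalization, and Ahr to -0.026 with the Arntl covariate. Nr1i2, near 0, turned to -0.017 without background correction, -0.021 with the processed signals, -0.070 with median centring, -0.040 with the authors' values, -0.0048 with array position, -0.0050 without quercetin replicate 2 (0.0042 without control replicate 5), -0.032 also with median centring, and -0.15 with the Arntl covariate. Of 500 list medians 477 moved by less than the spread between mice. Depth of signal limits dim probes, whose differences the offset understates.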

Other observations

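Some called genes stand on no list and were chosen after their values were seen, so they show nothing about a group of genes. E-cadherin Cdh1 (log2 difference -0.46), the claudin Cldn1 (-0.43), the adhesion receptor Cxadr (-0.47), the matricellular protein Ccn1 (-0.39) and the polarity protein Pard6b (-0.23) were lower by limma, and Ccn1 was not called with the slide as a fixed block. Nmrk1, a kinase that makes NAD from nicotinamide riboside, was higher by 0.45, and was not called with the slide as a fixed block. Ranbp9, a scaffold protein and the other gene whose groups did not overlap, ranged from -0.69 to -0.17 in control and from -0.15 to 0.14 in quercetin-fed mice (difference 0.34), with a baseline mean of 0.03.

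C57BL/6J mice of the Jackson colony are known to carry a damaged Nnt gene. Averaged over the diet groups, the expressed probes of Nnt were at 29.8, 30.7 and 166 times background in Cy5. The brightest Nnt probe had a log2 difference of 0.10 between the diets (adjusted p = 0.358, limma), and the other 2 expressed probes gave 0.19 and 0.21 and were called (adjusted p = 0.0329 and 0.0262).

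Further expressed probes were counted only for the called genes of the naming rule, and 26 of these have them. There, 32 of the 35 other probes had the same direction as the brightest and 20 were called in that direction. A further 46 called probes could not be named and are not described.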
